A study of Arabidopsis thaliana with 12 samples.

Results

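The probe sets described here are those that the array carries for the organelle genomes, meaning the genes encoded in the plastid and in the mitochondrion and not in the nucleus. They were chosen by their position in the numbering of the array, from 244901 to 245026 with any suffix, and not by any measured value. This gave 126 of the 22746 probe sets that remained after 64 control probe sets were set aside. The gene table paired 82 of the 126 with 1 gene and 9 with 2 genes, and 35 had no entry. By gene ID, 73 were plastid (65 with 1 gene, 8 with 2), and by symbol or synonym 12 were mitochondrial. A further 5 carried locus names of chromosome 2 (AT2G07674, AT2G07708, AT2G07732, AT2G07751 and AT2G07776). For the remaining probe set, 244944_s_at, both paired symbols occur in the plastid and in the mitochondrial genome, so its genome was not settled. Of the 126, 21 have the suffix _s_at, which marks probes shared by several transcripts, and values of these are uncertain as to the gene. Probe sets paired with 2 genes are given below by their number only.

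Wild-type (WT) Arabidopsis thaliana seedlings on MS plates were profiled on 12 arrays in 4 treatments with 3 biological replicates each. The treatments were CK (no agent), 10 µM of INA, 4 µg/ml of BLM, and both agents together at these doses (BLM+INA). Per the series title, one agent damages DNA and the other induces immunity. Seedling age and treatment time are not given in the sources used here. RNA came from whole seedlings, so fewer cells of a type and less RNA per cell cannot be told apart.

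Plastids and mitochondria keep small genomes that encode core subunits of photosynthesis and respiration together with parts of their own gene expression machinery, while most of their proteins are encoded in the nucleus. Plastid genes are transcribed largely as multi-gene units by an RNA polymerase whose core subunits the plastid itself encodes (rpoA, rpoB, rpoC1, rpoC2) and by phage-type polymerases encoded in the nucleus. In seed plants, organelle transcripts carry poly(A) tails mainly while they are being degraded. The labelling kit named in the labels primes from poly(A) tails, so for these genes the amount of transcript and the share of it that carries a tail cannot be told apart.

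Each value is a log2 value relative to the same probe set's median over the 12 arrays, so 0 is that probe set's midpoint and levels of different genes cannot be compared. Only a broad class of each probe set's level could be read, from how finely its numbers were stored. By this reading the log2 level was 8 or over for 54 of the 73 plastid probe sets, for 1 of the 12 mitochondrial ones (ccmFN1) and for 3637 of all 22746. The class from 4 to 8 held 17 plastid and 7 mitochondrial probe sets, and the lowest class, from 2 to 4, held 2 plastid (ndhF, rpoB) and 4 mitochondrial ones (nad6, nad7, ccmFN2, matR). Of the 35 probe sets without a gene entry, 25 lay in the lowest class. Differences between groups were tested with limma over all probe sets, with Benjamini-Hochberg adjustment for each comparison. A probe set is said to have risen or fallen where the adjusted p was under 0.05.

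As a check of the tissue, PSAN and LHCB4.2, nuclear subunits of the photosystems, and PYK10, an abundant root protein, all lay in the level class of 8 or over, so both green and root tissue were represented. Among probe sets paired with 1 gene, the only ones searched, the gene table named 2 of the 12 green shoot markers and 3 of the 4 root markers listed. The summed log2 value of the 2 green markers ranged from 0.286 to 0.377 in CK, from 0.151 to 0.326 in INA, from -0.291 to -0.205 in BLM and from -0.520 to -0.428 in BLM+INA. The sum of the 3 root markers ranged from 0.968 to 1.33 in CK, from 0.668 to 1.04 in INA, from -1.02 to -0.968 in BLM and from -1.22 to -1.07 in BLM+INA. Both sums were lower on each of the 6 arrays with BLM than on each of the 6 without it. The root sum moved through EXP7 (-1.21 ± 0.12 with BLM, -1.16 ± 0.12 with BLM+INA) and EXP18 (-0.82 ± 0.11, -1.08 ± 0.11), expansins of root hairs, while PYK10 stood at -0.06 ± 0.10 and -0.02 ± 0.10. The part of these shifts in the organelle values below was not tested.

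Mitochondrial probe sets lay higher in the groups given BLM, 2 of them past the test with BLM and 3 with BLM+INA. Plastid probe sets lay on balance below CK in all 3 treated groups, with medians of -0.08 with INA, -0.09 with BLM and -0.13 with BLM+INA, a shift that rested largely on 1 CK array. Against CK, 11 of the 126 probe sets (8.73%) passed with BLM, 5 of which rose and 6 of which fell. Over all probe sets, 16.7% passed in that comparison, 8.38% as rises and 8.29% as falls. With BLM+INA, 16 of the 126 (12.7%) passed, 6 as rises and 10 as falls, where 22.2% of all probe sets passed, 11.2% as rises and 11% as falls. In both comparisons the share of the organelle block was below that of the array as a whole. All 6 falls with BLM and all 10 with BLM+INA were plastid, 8.22% and 13.7% of the 73, which is near the share of falls over the array, and no plastid probe set rose. No mitochondrial probe set fell. These comparisons share the CK arrays and are given side by side for that reason.

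The median over the 12 mitochondrial probe sets read -0.08, -0.05 and -0.13 on the CK arrays, 0.01, -0.11 and -0.18 on the INA arrays, 0.24, 0.18 and 0.05 on the BLM arrays, and 0.12, 0.07 and 0.05 on the BLM+INA arrays. The 6 arrays with BLM lay above the 6 without it. The median over the 73 plastid probe sets read 0.27, 0.00 and -0.01 on the CK arrays, 0.05, 0.04 and -0.08 on the INA arrays, 0.02, 0.10 and -0.10 on the BLM arrays, and 0.01, -0.06 and -0.10 on the BLM+INA arrays. CK replicate 1 stood apart as the highest array for the plastid, and the other 2 CK arrays lay within the range of the treated groups.

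**Figure D1:**
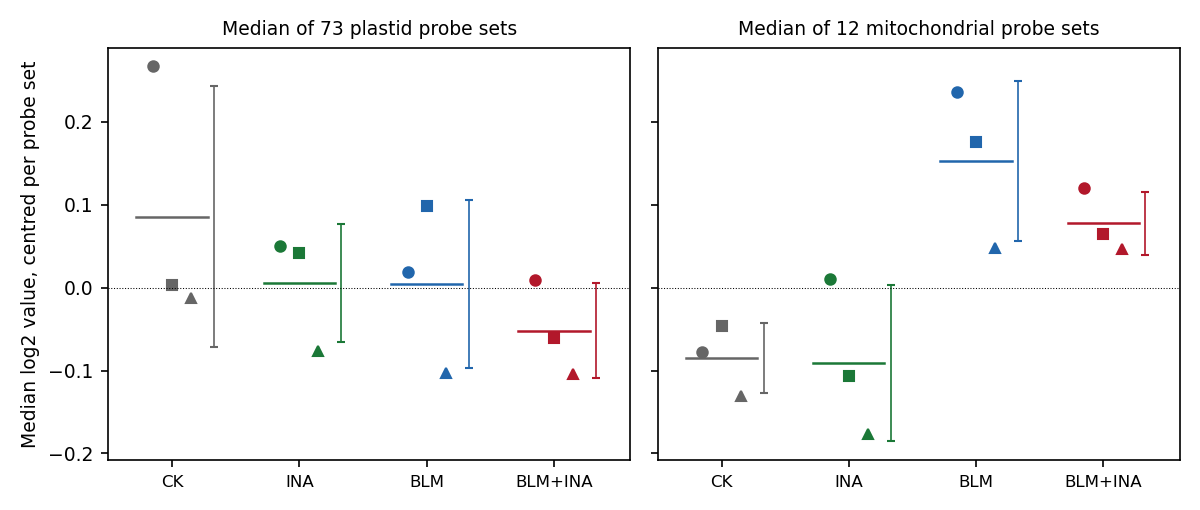
Median log2 value of the 73 plastid probe sets (left) and of the 12 mitochondrial probe sets (right) on each of the 12 arrays, by group. Circles, squares and triangles are replicates 1, 2 and 3, lines are group means and bars are ± SD (n = 3). On the right, the arrays with BLM lie between 0.0472 and 0.237 and the others between -0.177 and 0.0102, and on the left CK replicate 1 lies at 0.267, above the other 11 arrays.

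Expressed as the difference from CK, the median mitochondrial probe set stood at 0.24 with BLM and 0.17 with BLM+INA, beside 0.04 and 0.02 over all probe sets. All 12 mitochondrial differences were above 0 with BLM and 10 of 12 with BLM+INA, beside 58.1% and 53.2% of all probe sets. Of the 73 plastid differences, 29 were above 0 with BLM, 17 with BLM+INA and 11 with INA. Without CK replicate 1, the plastid medians were 0.00 with BLM, -0.04 with BLM+INA and 0.01 with INA. The mitochondrial medians ranged from 0.22 to 0.27 (BLM) and from 0.11 to 0.22 (BLM+INA) when each array was left out in turn.

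Among the mitochondrial genes, the clearest rise was that of ccmFC (244951_s_at, ccb452 in the gene table), which encodes part of the machinery that attaches haem to cytochrome c. Its values were -0.38, -0.46 and -0.31 in CK, -0.11, -0.35 and -0.48 in INA, 0.36, 0.22 and 0.12 in BLM, and 0.40, 0.40 and 0.11 in BLM+INA. Every array with BLM lay above every array without it. The difference from CK was 0.61 ± 0.12 (SE, n = 3 per group) with BLM (limma adjusted p = 0.00106) and 0.69 ± 0.12 with BLM+INA (adjusted p = 0.00025), and BLM+INA exceeded INA by 0.62 ± 0.12 (adjusted p = 0.000861). These calls held in all 12 fits that each left out 1 array. The probe set shares the suffix _s_at, so transcripts from another copy of the sequence may contribute to it.

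The other 3 probe sets for cytochrome c maturation did not pass. The differences of ccmB were 0.22 ± 0.15 with BLM and 0.09 ± 0.15 with BLM+INA, and those of ccmFN2 were 0.25 ± 0.11 and 0.17 ± 0.11. For ccmFN1 they were 0.04 ± 0.20 and 0.17 ± 0.20.

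The gene cox2 encodes a catalytic subunit of cytochrome c oxidase, respiratory complex IV. Its values were -0.53, -0.41 and -0.30 in CK, 0.02, -0.72 and -0.09 in INA, 0.09, 0.05 and 0.20 in BLM, and -0.02, 0.07 and 0.08 in BLM+INA. Both BLM groups lay above the CK arrays, while the INA arrays spread from below CK to within the BLM+INA range. It rose by 0.53 ± 0.15 with BLM (limma adjusted p = 0.0193) and by 0.46 ± 0.15 with BLM+INA (adjusted p = 0.0324). The first call was lost in 3 and the second in 5 of the 12 fits that left out an array, CK replicates 1 and 2 among them.

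Complex I, the NADH dehydrogenase of the respiratory chain, was represented by 5 probe sets (nad4, nad4L, nad6, nad7 and nad9). All 5 differences were above 0 with BLM, from 0.14 to 0.32, and none passed. With BLM+INA, 4 of 5 were above 0 and nad9 rose. Its values were 0.03, -0.34 and -0.37 in CK, 0.03, -0.09 and -0.14 in INA, -0.10, -0.02 and 0.04 in BLM, and 0.66, 0.27 and 0.02 in BLM+INA. With both agents the arrays overlapped CK at the lower end, since BLM+INA replicate 3 lay just below CK replicate 1. The difference was 0.54 ± 0.14 with BLM+INA (limma adjusted p = 0.00992) and 0.20 ± 0.14 with BLM (adjusted p = 0.387). The call was lost without CK replicate 3 and without BLM+INA replicate 1.

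Besides ccmFC, nad4 and nad6 were higher with BLM+INA than with INA. In nad4 the values were -0.23, -0.24 and -0.30 in INA and 0.02, 0.02 and 0.13 in BLM+INA, against -0.19, -0.07 and -0.02 in CK and 0.04, 0.17 and 0.28 in BLM. The 3 INA arrays were the lowest of the 12, and the difference between BLM+INA and INA was 0.31 ± 0.10 (limma adjusted p = 0.0298). In nad6 (244953_s_at), which lay in the lowest level class, INA read -0.29, -0.17 and -0.19 and BLM+INA read 0.02, 0.18 and 0.33. These groups did not overlap, with a difference of 0.39 ± 0.12 (limma adjusted p = 0.0309). Leaving out any 1 of the 6 arrays compared ended the call for nad4, and 5 of the 6 did so for nad6. In this comparison 8 of the 126 organelle probe sets passed (6.35%, with 6 rises and 2 falls), beside 18.8% of all probe sets (9.27% and 9.52%).

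The remaining mitochondrial probe sets, matR for a maturase that takes part in intron splicing and mttB for a transport protein, did not pass in any comparison. For mttB the differences were 0.19 ± 0.16 with BLM and 0.20 ± 0.16 with BLM+INA. For matR they were 0.14 ± 0.12 and -0.01 ± 0.12.

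Of the 35 probe sets without a gene entry, 3 rose in at least 1 comparison and none fell. With BLM against CK, BLM+INA against CK and BLM+INA against INA, 2 of the 35 (5.71%) rose each time, a share below that of rises over the array. 244906_at read -0.36, -0.06 and -0.20 in CK, -0.29, -0.33 and -0.04 in INA, 0.45, 0.04 and 0.56 in BLM, and 0.57, 0.19 and 0.43 in BLM+INA. Every array with BLM was above every array without it, and the difference from CK was 0.56 ± 0.14 with BLM (limma adjusted p = 0.00995) and 0.61 ± 0.14 with BLM+INA (adjusted p = 0.00384). The call with BLM was lost without CK replicate 1 and without BLM replicate 3. 244903_at read -0.11, -0.09 and -0.17 in CK, -0.43, -0.22 and 0.05 in INA, -0.05, 0.13 and 0.31 in BLM, and 0.57, 0.33 and 0.32 in BLM+INA. Its 3 highest arrays were those with both agents, 0.53 ± 0.13 above CK (adjusted p = 0.00495) and 0.60 ± 0.13 above INA (adjusted p = 0.00224). 244915_s_at rose with BLM by 0.43 ± 0.11 (adjusted p = 0.00877) and stood at 0.17 ± 0.11 with BLM+INA.

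The arm of chromosome 2 near the centromere carries a large copy of the mitochondrial genome in this species, so transcripts of the 5 chromosome 2 loci cannot be assigned to the nucleus or the mitochondrion with certainty. Among these 5, AT2G07776 rose with BLM by 0.47 ± 0.15 (limma adjusted p = 0.0376) and stood at 0.20 ± 0.15 with BLM+INA. Its call was lost in 5 of the 12 fits that left out an array, including each fit without a CK array. 244944_s_at, the probe set of unsettled genome, rose with BLM+INA by 0.41 ± 0.12 (adjusted p = 0.0157) and stood at 0.34 ± 0.12 with BLM (adjusted p = 0.0534). Its call was lost in 3 of the 12 fits, without CK replicate 2, BLM+INA replicate 1 or BLM+INA replicate 3.

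**Figure D2:**
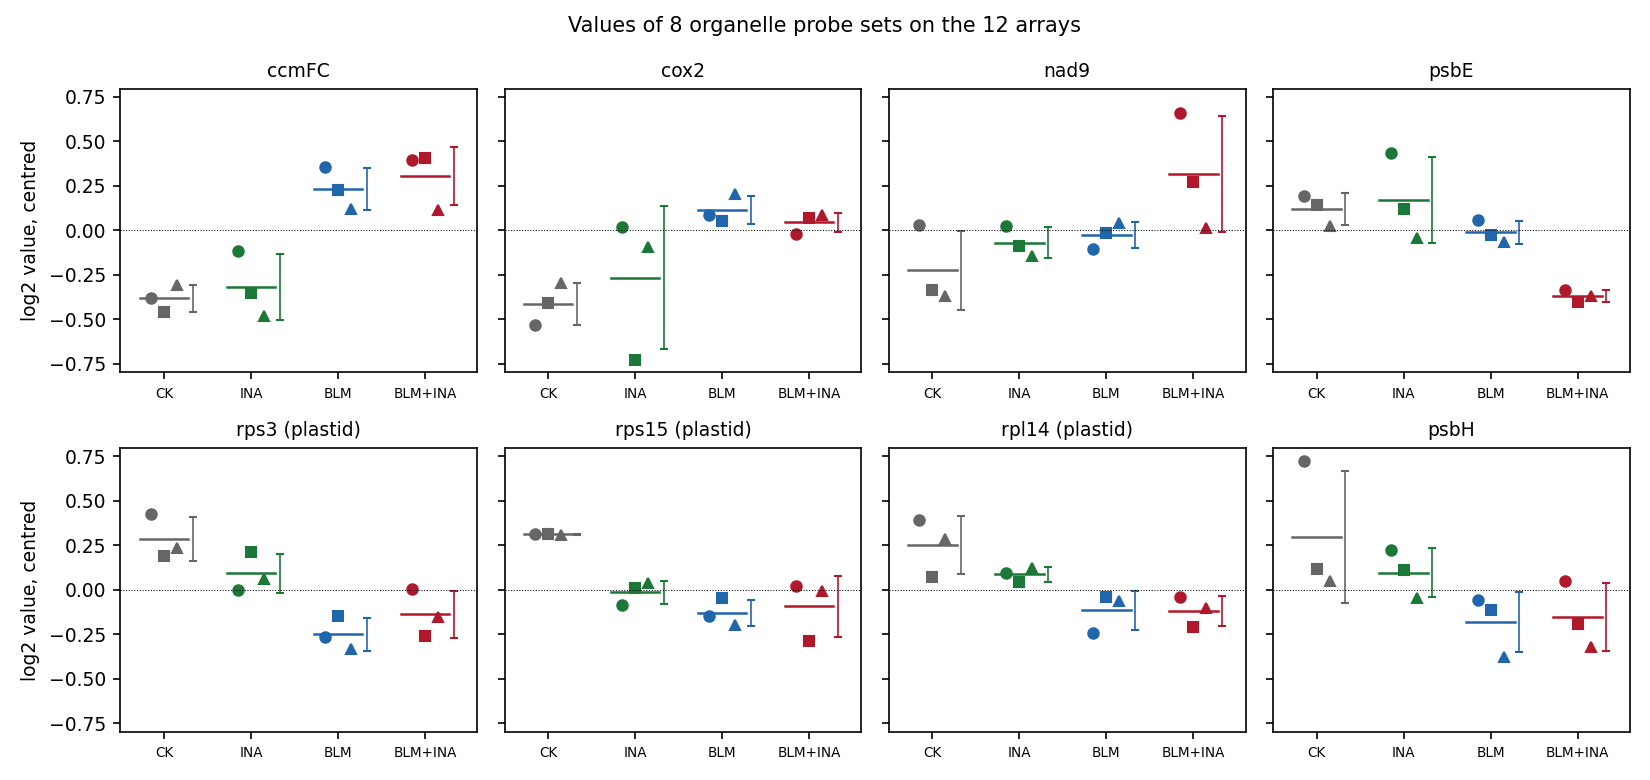
Log2 values, centred on each probe set's median, of 8 organelle probe sets on the 12 arrays by group. Circles, squares and triangles are replicates 1, 2 and 3, lines are group means and bars are ± SD (n = 3). The ccmFC values of the 6 arrays with BLM all lie above those of the other 6, and psbE is lowest on the 3 BLM+INA arrays.

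In the plastid, 4 of the 6 falls with BLM and 5 of the 10 with BLM+INA were in genes for ribosomal proteins, which form the plastid's own bacterial-type ribosome. There were 19 such probe sets, and none rose. Over all probe sets 8.29% fell with BLM and 11% with BLM+INA. Their differences lay below 0 for 18 of 19 with BLM, with a median of -0.25, and for 17 of 19 with BLM+INA, with a median of -0.29. With INA, 18 of 19 also lay below 0, with a median of -0.08, beside 62 of 73 over the whole plastid, and none passed. The genes rps15, rps3 and rpl14 and the probe set 244988_s_at fell with both BLM treatments, and rpl22 fell with BLM+INA.

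The small-subunit gene rps15 read 0.31 on each of the 3 CK arrays, -0.09, 0.01 and 0.04 in INA, -0.15, -0.05 and -0.20 in BLM, and 0.02, -0.29 and -0.01 in BLM+INA. The CK arrays lay above all 9 treated arrays, and the treated groups overlapped one another. The difference from CK was -0.44 ± 0.10 with BLM (limma adjusted p = 0.00486) and -0.40 ± 0.10 with BLM+INA (adjusted p = 0.0067). With INA it was -0.33 ± 0.10, which at an adjusted p of 0.208 did not pass. Neither call with BLM was lost when any 1 array was left out.

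The plastid rps3, also of the small subunit, read 0.43, 0.19 and 0.24 in CK, 0.00, 0.21 and 0.06 in INA, -0.26, -0.15 and -0.33 in BLM, and 0.00, -0.26 and -0.16 in BLM+INA. Both BLM groups lay below CK, and INA lay between, overlapping CK. It fell by 0.53 with BLM (SE 0.11, limma adjusted p = 0.00173) and by 0.42 with BLM+INA (SE 0.11, adjusted p = 0.0074), and both calls held in all 12 fits without 1 array.

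The large-subunit genes gave calls that depended on single arrays. The gene rpl14 read 0.39, 0.07 and 0.28 in CK, 0.10, 0.04 and 0.12 in INA, -0.24, -0.04 and -0.06 in BLM, and -0.04, -0.21 and -0.10 in BLM+INA. All 6 arrays with BLM lay below the other 6. Its differences were -0.36 ± 0.10 (limma adjusted p = 0.0215) and -0.37 ± 0.10 (adjusted p = 0.0154), and each call was lost in 3 of the 12 fits, in both cases without CK replicate 1 and without CK replicate 3. For rpl22 the values were 0.38, 0.22 and 0.06 in CK, 0.33, 0.09 and -0.06 in INA, -0.09, 0.08 and -0.37 in BLM, and -0.15, -0.20 and -0.23 in BLM+INA. Only the BLM+INA arrays were clear of CK, with a difference of -0.41 ± 0.13 (adjusted p = 0.0262) that was lost in 4 fits, CK replicate 1 again among them.

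The probe set 244988_s_at is paired with 2 plastid genes of the same symbol, for a large-subunit ribosomal protein. It read 0.50, 0.31 and 0.12 in CK, 0.41, 0.36 and -0.02 in INA, 0.02, -0.11 and -0.21 in BLM, and -0.18, -0.34 and -0.35 in BLM+INA. With both agents, all 3 arrays were below CK and INA. Its fall of 0.60 with BLM+INA against CK (SE 0.13, limma adjusted p = 0.00187) had the largest size among the plastid probe sets in that comparison. It stood 0.54 lower than with INA, at a difference of -0.54 ± 0.13 (adjusted p = 0.00572), and both calls held in all 12 fits without 1 array. The difference between BLM and CK was -0.41 ± 0.13 (adjusted p = 0.0325), a call lost in 4 of the 12 fits, without CK replicate 1 or 2 or BLM replicate 2 or 3.

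Most ribosomal protein probe sets did not pass. The difference of rps14 was 0.11 ± 0.09 with BLM and 0.12 ± 0.09 with BLM+INA, and those of 244992_s_at were -0.04 ± 0.09 and -0.02 ± 0.09. The genes rps2 and rps4 stood between -0.15 and -0.09 in both comparisons. Lower, without passing, were rps19, rpl16, rpl32, rps18, rpl20 and rpl33. They stood between -0.38 and -0.24 with BLM and between -0.35 and -0.26 with BLM+INA.

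Of the 5 ribosomal protein probe sets that fell with BLM+INA, 4 lie in 1 stretch of the genome. In the RefSeq gene order of the plastid genome (assembly TAIR10.1), the stretch from rpoA to the genes of 244988_s_at was covered by rpoA, rpl36, rpl14, rpl16, rps3, rpl22, rps19, 244987_s_at and 244988_s_at. All of these but rpoA are for ribosomal proteins, so the stretch holds a large part of the 19 such probe sets. The genes on either side of rpl36 have no probe set that the gene table names. This is a region known in plants as a single large transcription unit of the S10 and spc type of bacteria. All 9 differences in this stretch were below 0 with BLM (median -0.32, 3 fell), with BLM+INA (median -0.35, 4 fell) and with INA (median -0.10, none passed). Of these 9 the smallest sizes were those of rpl36 with BLM, at -0.02 ± 0.10, and of 244987_s_at with BLM+INA, at -0.14 ± 0.09. With BLM+INA, all 6 probe sets from psbB to petD and all 4 from psbJ to psbE also lay below 0. From rps2 to rpoB it was 3 of 4, from atpA to atpI 3 of 4, and from ndhD to ndhH 4 of 7. Over the whole plastid set 56 of 73 lay below 0. The gene rps15 lies outside the stretch that starts at rpoA, at the far end of the order next to ndhH. Also outside it, rpl33, rps18, rpl20 and rpl32 stood between -0.31 and -0.26 with BLM+INA, and none passed. The genes rps2, rps4 and rps14 and the probe sets 244939_at, 244940_at and 244992_s_at stood between -0.15 and 0.12.

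**Figure D3:**
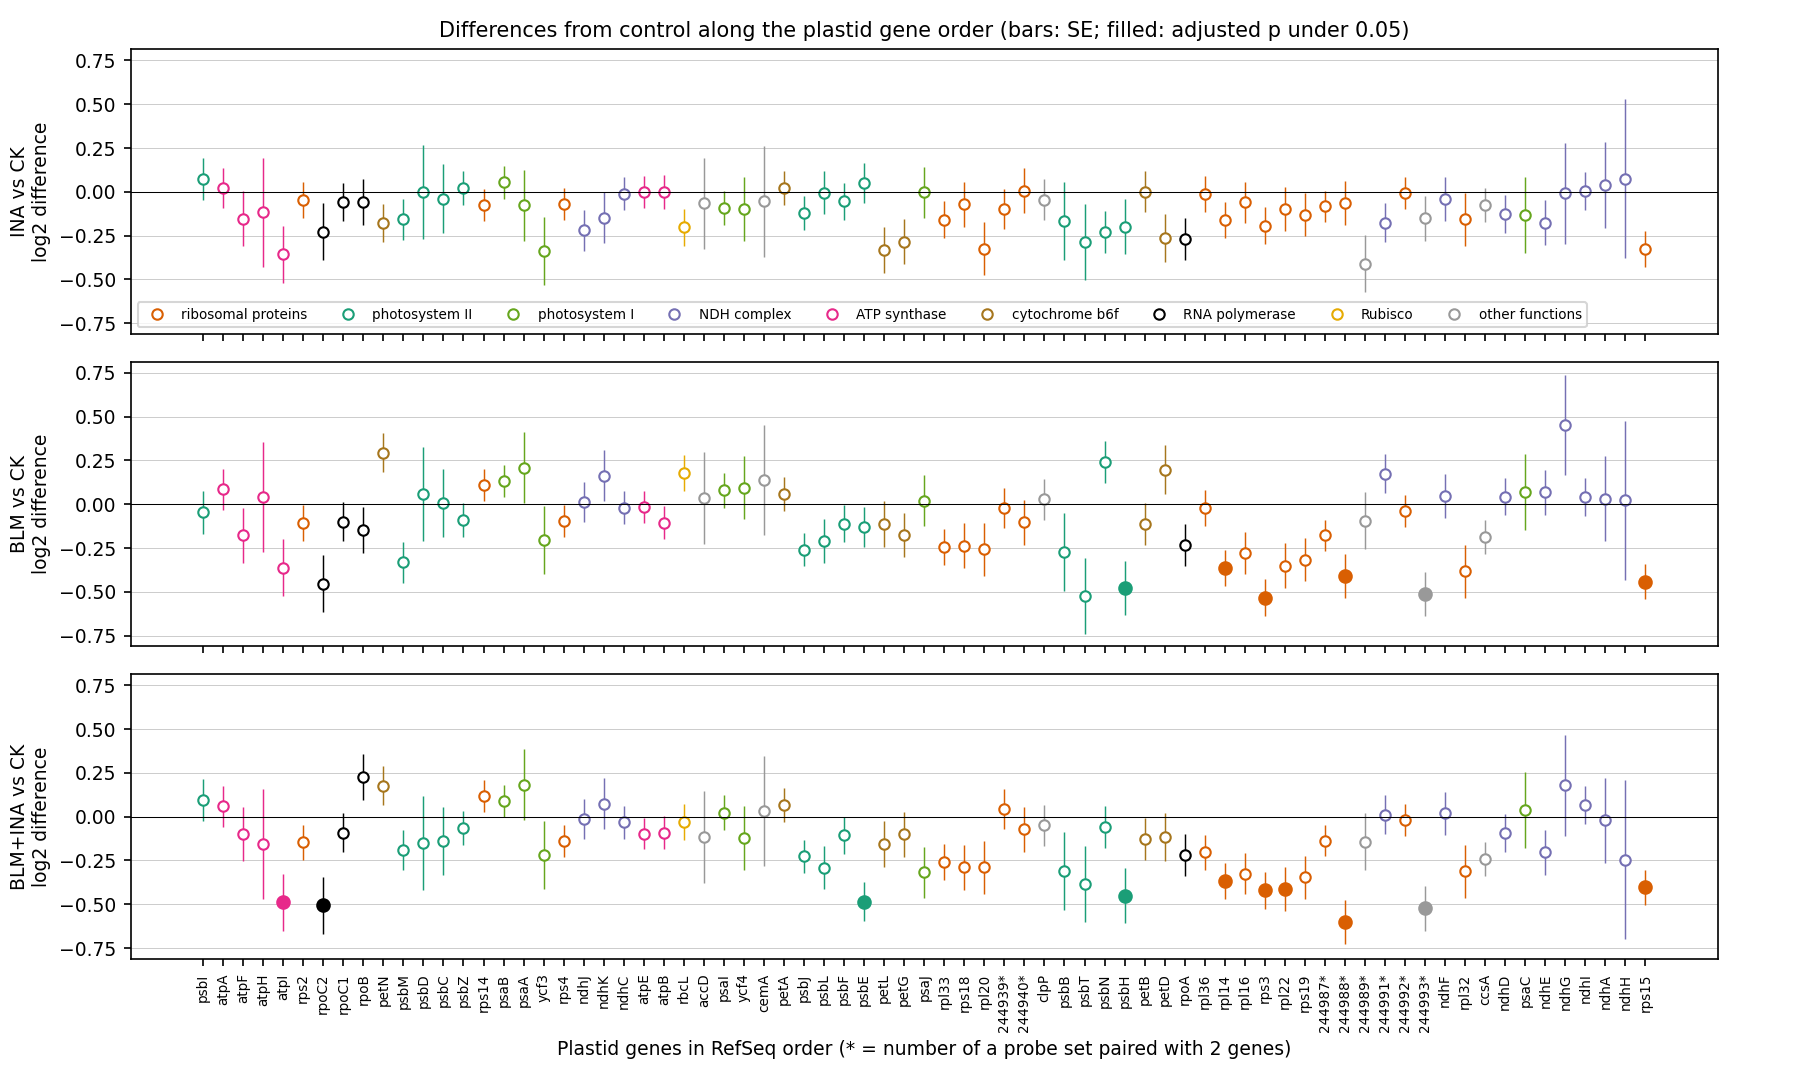
Log2 differences from CK of the 73 plastid probe sets with INA (top), BLM (middle) and BLM+INA (bottom), in the RefSeq order of the plastid genes and coloured by function. Bars are ± SE (n = 3 per group) and filled points passed at an adjusted p under 0.05. The 9 named probe sets from rpoA to 244988_s_at are all below 0 in the 3 panels, and the widest bar belongs to ndhH (SE 0.45).

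Values were also compared between plastid probe sets that come next to each other among those measured. Over the 12 arrays, the median correlation of these 72 pairs was 0.52, and that of the other 2556 pairs was 0.34. After group means were removed, the medians were 0.42 and 0.37. All pairs share the same 12 arrays, so these values only describe the data.

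The 4 core subunits of the plastid RNA polymerase were all below 0 with BLM, with a median of -0.19, and none passed. With BLM+INA, rpoC2 fell and rpoB stood at 0.23 ± 0.13. For rpoC2 the values were 0.74, 0.21 and 0.08 in CK, 0.20, 0.34 and -0.19 in INA, -0.09, 0.06 and -0.29 in BLM, and -0.14, -0.06 and -0.29 in BLM+INA. CK replicate 1 was the highest array by a wide margin. The difference was -0.51 ± 0.16 with BLM+INA (limma adjusted p = 0.0313), a call that was lost without that array, at a size of -0.31.

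Of the 13 probe sets for photosystem II, the complex that splits water, 1 fell with BLM (psbH) and 2 with BLM+INA (psbH and psbE). Their median difference was -0.13 with BLM and -0.19 with BLM+INA, and 10 and 12 of the 13 lay below 0. The gene psbE, for a subunit of cytochrome b559, read 0.20, 0.14 and 0.02 in CK, 0.43, 0.12 and -0.04 in INA, 0.06, -0.02 and -0.07 in BLM, and -0.33, -0.40 and -0.37 in BLM+INA. All 3 arrays with both agents lay below the other 9, whose groups overlapped.

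With BLM+INA, psbE fell by 0.49 against CK (SE 0.11, limma adjusted p = 0.00398), and the difference from INA was -0.54 ± 0.11 (adjusted p = 0.00238). Both calls held in all 12 fits that left out 1 array. With BLM the difference from CK was -0.13 ± 0.11 (adjusted p = 0.489). The difference between BLM+INA and BLM was -0.36 ± 0.11, which had the lowest adjusted p of the organelle block in that comparison and did not pass (adjusted p = 0.0799). In the RefSeq order psbE follows psbJ, psbL and psbF, with differences of -0.23 ± 0.10, -0.29 ± 0.12 and -0.11 ± 0.10 with BLM+INA, none of which passed.

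The gene psbH, for a small subunit of photosystem II, read 0.72, 0.12 and 0.05 in CK, 0.22, 0.11 and -0.05 in INA, -0.06, -0.12 and -0.38 in BLM, and 0.05, -0.19 and -0.32 in BLM+INA. CK replicate 1 again stood far above the other arrays. The differences were -0.48 ± 0.16 with BLM (limma adjusted p = 0.0443) and -0.45 ± 0.16 with BLM+INA (adjusted p = 0.0476). Each call was lost in 7 of the 12 fits without 1 array, and without CK replicate 1 the differences were -0.27 and -0.24. Its neighbour psbT had the same pattern, with a CK replicate 1 value of 0.99, and did not pass (-0.52 ± 0.22 with BLM, adjusted p = 0.116). The gene psbN, which lies between psbT and psbH and is transcribed from the opposite strand in plants, stood at 0.24 ± 0.12 with BLM.

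The other photosynthetic complexes gave few calls. None of the 7 photosystem I probe sets passed in any comparison, assembly factors ycf3 and ycf4 included. With BLM 6 of the 7 were above 0 (median 0.08), and the largest size with BLM+INA was that of psaJ, at -0.32 ± 0.14 (limma adjusted p = 0.138). The gene rbcL, for the large subunit of Rubisco, which fixes carbon dioxide, read 0.03, 0.07 and -0.03 in CK, -0.19, -0.15 and -0.20 in INA, 0.03, 0.39 and 0.18 in BLM, and 0.12, -0.12 and -0.03 in BLM+INA. INA was its lowest group, and its differences from CK (-0.20 ± 0.10 with INA, 0.18 ± 0.10 with BLM, -0.03 ± 0.10 with BLM+INA) did not pass.

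None of the 11 probe sets of the NDH complex, which carries electrons around photosystem I, passed either. With BLM, 10 of 11 were above 0, with a median of 0.04. Among the 6 ATP synthase probe sets, atpI fell with BLM+INA, by 0.49 (SE 0.16, limma adjusted p = 0.0394). Its CK values were 0.87, -0.05 and 0.33, and all 9 treated arrays lay between -0.25 and 0.15, so that CK overlapped them. Without CK replicate 1 the difference was -0.25 and did not pass. The other 5 subunits stood between -0.16 and 0.06 with BLM+INA.

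Among the 6 probe sets of the cytochrome b6f complex, which links the photosystems, petN was higher with BLM+INA than with INA. It read -0.21, -0.02 and 0.02 in CK, -0.29, -0.16 and -0.30 in INA, 0.21, 0.33 and 0.13 in BLM, and 0.29, 0.08 and -0.06 in BLM+INA. The call for this difference of 0.35 ± 0.11 (limma adjusted p = 0.0297) was lost in 4 of the 6 fits without an array compared. The gene petN was the plastid's only rise in any comparison. Its differences from CK were 0.29 ± 0.11 with BLM and 0.18 ± 0.11 with BLM+INA, and neither passed.

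The last group held 6 plastid probe sets of other functions, such as clpP for a protease subunit and accD for a subunit of the enzyme that starts fatty acid synthesis. The probe set 244993_s_at, paired with 2 plastid genes of the same symbol, fell with both BLM treatments. It read 0.59, 0.11 and 0.32 in CK, 0.03, 0.31 and 0.23 in INA, -0.35, -0.03 and -0.13 in BLM, and -0.31, -0.15 and -0.09 in BLM+INA. All 6 arrays with BLM were below the other 6. The difference was -0.51 ± 0.13 with BLM (limma adjusted p = 0.00938) and -0.52 ± 0.13 with BLM+INA (adjusted p = 0.00582). The second held in all 12 fits, and the first was lost without CK replicate 1 and without BLM replicate 1. In the same comparisons the other 5 lay between -0.24 (ccsA, BLM+INA) and 0.14 (cemA, BLM), and none passed.

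With INA alone, none of the 126 organelle probe sets passed in limma, beside 1.16% of all probe sets. At an unadjusted p under 0.05 there were 7 of the 126, beside 1659 of all 22746 probe sets. All 7 were plastid and below 0: rps15, petL, 244989_s_at, rpoA, petG, atpI and rpl20. Their differences lay between -0.41 and -0.27. Over the whole plastid set 62 of 73 were below 0, with a median of -0.08, beside 0.01 over all probe sets. Without CK replicate 1 the plastid median was 0.01. The median mitochondrial difference was 0.00, with 6 of 12 above 0.

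Adding INA to BLM gave no call in the block. For BLM+INA against BLM, none of the 126 passed in limma, beside 5.81% of all probe sets. An unadjusted p under 0.05 was reached by 11 of the 126, beside 3849 of all 22746. The median difference was -0.04 for the plastid, -0.08 for the mitochondrion and -0.02 over all probe sets. The interaction is the difference between BLM+INA and BLM minus the difference between INA and CK. It also gave none past the threshold, beside 0.382% of all probe sets. An unadjusted p under 0.05 was reached by 4 of the 126, beside 1698 of all 22746. The 4 were rps15 (0.36), psbE (-0.41), rpoB (0.43) and nad4L (-0.44). The lowest adjusted p among them was 0.538. The median standard error of a group difference was 0.122 for plastid and 0.132 for mitochondrial probe sets, beside 0.115 over all. These values set the size of change that the fit, made without a replicate block, could resolve with 3 arrays per group.

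Across all 6 comparisons, 21 of the 126 probe sets passed at least once, 11 only as rises and 10 only as falls, and 105 never did. Over all probe sets, 22.2% passed in BLM+INA against CK alone, and the count over all 6 comparisons was not made. Of the 21, 11 were plastid and 5 mitochondrial, and 6 had the suffix _s_at.

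The spread between replicates was not even across the organelle genes. In a test of the replicate number, chosen after the data were seen and fitted beside the treatments, 12 of the 126 probe sets passed (9.52%), beside 1.94% of all probe sets. They comprised 11 plastid genes and the mitochondrial ccmFN1, and in all 12 the arrays numbered 3 had the lowest mean. Of the 442 that passed over the array, 322 were lowest and 116 highest in number 3. The numbers name the samples only, and the labels do not say whether equal numbers were handled together.

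The largest such difference was in ndhH, whose values were 0.76, -0.33 and -0.88 in CK, 0.57, 0.35 and -1.13 in INA, 0.35, 0.20 and -0.92 in BLM, and 0.12, -0.12 and -1.18 in BLM+INA. Replicate 3 was the lowest of its group in all 4 treatments. The means over the 4 arrays of a number were 0.45 ± 0.28, 0.02 ± 0.30 and -1.03 ± 0.15 (SD) for numbers 1, 2 and 3 (limma moderated F test, adjusted p = 0.000177). The same order held for cemA, at 0.24 ± 0.10, 0.10 ± 0.21 and -0.73 ± 0.13 (adjusted p = 0.00031), and for atpH, at 0.27 ± 0.26, 0.09 ± 0.18 and -0.66 ± 0.18 (adjusted p = 0.00183). The other plastid genes were accD, ndhG, psbB, psbC, psbD, psaC, ycf3 and ycf4. None of these 12 had passed in a comparison of treatments.

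**Figure D4:**
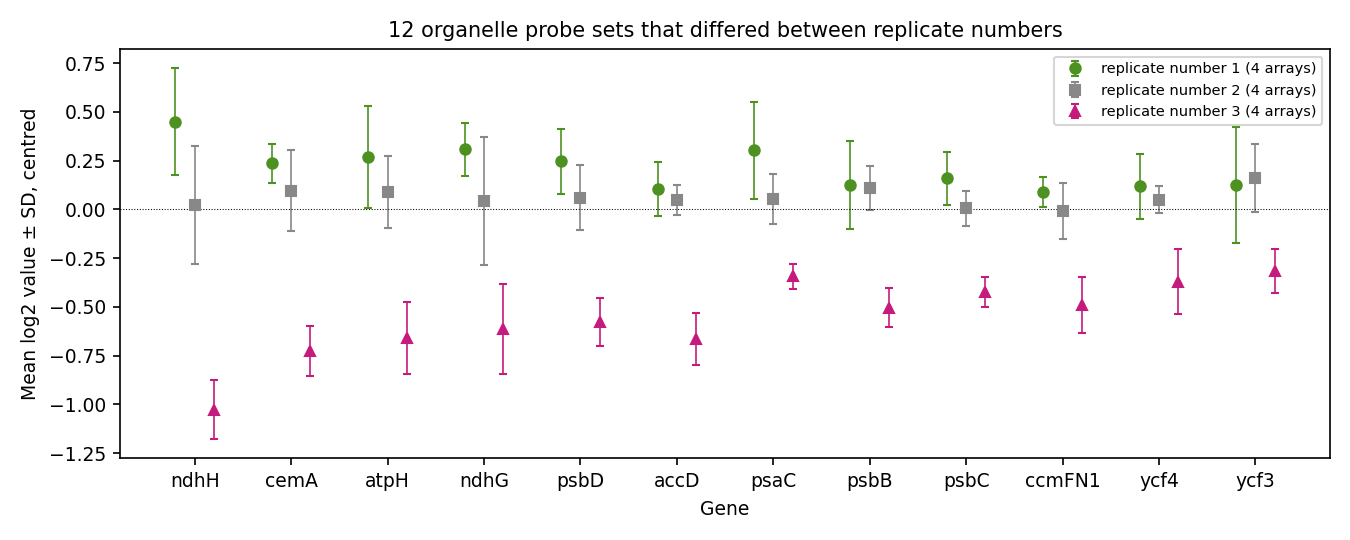
Mean log2 value (± SD, 4 arrays each) of the 12 organelle probe sets that differed between replicate numbers, 1 array from each treatment per number. The means of number 3 lie between -1.03 (ndhH) and -0.32 (ycf3), below those of numbers 1 and 2 for each gene.

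Among the dap, actin and GAPDH controls on the same arrays, the only ones read here, the dap spike moved most with the replicate number. For this bacterial control RNA the log2 value of the 3′ probe sets minus that of the 5′ probe sets was -0.36 ± 0.22, -0.03 ± 0.23 and 0.92 ± 0.13 (SD, 4 arrays) for numbers 1, 2 and 3. Between treatments its means lay between 0.04 and 0.26. The same measure was -0.30 ± 0.25, -0.07 ± 0.18 and 0.02 ± 0.12 for actin and -0.09 ± 0.22, -0.05 ± 0.06 and 0.16 ± 0.15 for GAPDH. By treatment, actin lay between 0.03 and 0.14 on the BLM+INA arrays, between -0.48 and -0.02 with BLM, between -0.45 and 0.08 with INA and between -0.32 and 0.04 in CK. The part of these controls in the values of ndhH and the other 11 probe sets was not tested.

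Nuclear genes that serve the organelles were read for context, as far as the gene table named them. Of 9 genes of organelle transcription it named RPOTMP, a phage-type RNA polymerase, whose difference was 0.05 ± 0.11 with BLM and -0.01 ± 0.11 with BLM+INA. Of 14 genes of organelle DNA maintenance it named OSB1, a DNA-binding protein of mitochondria, at -0.07 ± 0.13 and 0.00 ± 0.13. Neither passed in any comparison. Of 6 genes of the mitochondrial stress response it named UPOX and NDB2. UPOX, a mitochondrial protein induced by oxidative stress, rose by 1.59 ± 0.17 with BLM (limma adjusted p = 3.68e-06) and by 1.62 ± 0.17 with BLM+INA (adjusted p = 1.79e-06), while INA left it at 0.05 ± 0.17. NDB2, an alternative NADH dehydrogenase, stood at 0.31 ± 0.17 and 0.28 ± 0.17 and did not pass.

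Of the nuclear photosystem genes, PSAN fell by 0.52 with each BLM treatment (SE 0.09, limma adjusted p = 0.000588 with BLM and 0.00036 with BLM+INA). LHCB4.2, a light-harvesting antenna protein, stood at -0.06 ± 0.09 with BLM and fell by 0.28 with BLM+INA (SE 0.09, adjusted p = 0.0356). The plastid's own photosystem I genes psaA and psaB stood at 0.21 ± 0.20 and 0.13 ± 0.09 with BLM, and at 0.18 ± 0.20 and 0.09 ± 0.09 with BLM+INA.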

How the data were processed

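Total RNA of 12 whole-seedling samples was amplified, labelled with biotin and read on 1-colour arrays, per the labels' protocols. The authors deposited 1 table of log2 values, made with RMA per the submitters' processing notes (version not given). Base 2 is that of RMA. Every row has a median of 0 over the 12 arrays, so the values had been centred by row, which removed levels. Arrays have no counts or depth, and their number limits the precision.

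Genomes were assigned through RefSeq (TAIR10.1), by gene ID for plastid and chromosome 2 probe sets and by symbol or synonym for mitochondrial ones. RefSeq was otherwise used only for names and gene order. A linear model with a mean for each group was fitted to the 12 arrays in limma 3.58.1 (R 4.3.3), with 8 residual and 8.82 prior degrees of freedom. Two-sided p-values were adjusted by Benjamini-Hochberg over 22746 probe sets in each comparison. The fit was tried on simulated data with independent noise on each array. That simulation lacked the shared deviation seen between arrays numbered 3. Figures used matplotlib 3.10.9.

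The members, gene lists and tests were chosen with earlier results of these data known. Named were, per comparison, up to 10 rises and 10 falls past the threshold, the member of each functional group with the largest change in BLM+INA against CK, listed nuclear genes, and the 5 outside probe sets most like each genome's mean. Other members are named to complete a group. Alternatives were 2 normalizations, array weights, robust variances, a replicate block, the compared groups only, a filter on low levels, a threshold of 0.01, probe sets with 1 gene, and each array left out. Replicate numbers were not treated as pairs. No sequences were used here.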

Additional observations from a re-analysis of the deposited data

How the results depend on the processing

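With BLM against CK, 11 organelle probe sets passed. The number was 6 at a threshold of 0.01, 7 among probe sets with 1 gene, and from 5 (without CK replicate 1) to 15 when an array was left out. With BLM+INA against CK the organelle number was 16, with 9 at 0.01 and from 10 (without BLM+INA replicate 3) to 18. Over all probe sets, 5047 passed in the main fit, 3352 at 0.01 and 4355 without BLM+INA replicate 3. With BLM+INA against INA the organelle number was 8, with 13 under array weights, 5 at 0.01, 5 among probe sets with 1 gene, and from 6 to 10. Over all probe sets, 4274 passed in the main fit, 4918 under array weights and 2569 at 0.01. With BLM+INA against BLM the organelle number was 0, and from 0 to 2, while 1321 of all probe sets passed in the main fit. Deviations from the group means of same-numbered arrays correlated from -0.05 to 0.41 over all probe sets (18 pairs, median 0.13, beside -0.11 for 36 other pairs) and from -0.17 to 0.73 over the members (median 0.34, beside -0.33). The 6 pairs of arrays numbered 3 reached 0.23 to 0.41 over all and 0.61 to 0.73 over the members, a hint from the data of something shared by these arrays. Since not every pair was over 0.1, the numbers were not taken as pairs. With the replicate number as a block, 20 passed with BLM against CK, 1 with BLM+INA against BLM and 14 with BLM+INA against INA, among which all 11 calls with BLM and all 8 against INA remained. Over all probe sets, the block gave 4530, 1761 and 5019, beside 3790, 1321 and 4274 in the main fit. Without CK replicate 1, 4 of the 11 calls with BLM and 10 of the 16 with BLM+INA remained. The counts for INA and for the interaction were 0 under every alternative run. The plastid medians, without a test, ranged from -0.17 to 0.00 with BLM, from -0.21 to -0.04 with BLM+INA and from -0.16 to 0.01 with INA when an array was left out. Of 35 single calls none reversed. The cox2 call with BLM+INA was lost under quantile normalization (limma adjusted p = 0.0575), 1 other was lost under array weights, and 74 of 420 fits without 1 array lost theirs. These 420 include fits without an array outside the groups compared, which left the difference itself unchanged. The causes of these changes were not tested, and some of the alternative fits held fewer arrays or probe sets. The interaction was not refitted on the compared groups, which are all groups. No other background correction could be run on these values.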

Other observations

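A further 4 plastid genes have probe sets outside the organelle block: psbA, matK, rps16 and psbK. The gene matK, for a maturase, read 0.12, 0.07 and 0.19 in CK and -0.06, -0.14 and -0.19 in BLM+INA, and fell by 0.25 (SE 0.09, limma adjusted p = 0.048). With BLM its difference was -0.20 ± 0.09. The gene psbA, for the D1 protein of photosystem II, stood at 0.21 ± 0.10 with BLM and 0.12 ± 0.10 with BLM+INA. The ribosomal protein gene rps16 stood at -0.35 ± 0.19 in both, with a CK replicate 1 value of 0.75, and psbK stood at -0.07 ± 0.13 and -0.20 ± 0.13. Of the 8 differences that of matK with BLM+INA passed.

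Outside the block, the probe set whose values were most like the mean of the plastid probe sets over the 12 arrays was that of rps16 (Pearson r = 0.962). AT1G33660 (0.936), AT4G26600 (0.917), AT1G25360 (0.902) and AT5G04550 (0.900) followed. For the mean of the mitochondrial probe sets, the most alike were 258679_at (0.980), AT5G12010 (0.975), 254657_s_at (0.973), 249152_s_at (0.971) and 245903_at (0.970), and the other 4 of these 5 were paired with no single gene. All values share the same 12 arrays and were picked as the highest of many, so they describe the data only.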
